A study of Mus musculus with 15 samples.

Results

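D17H6S56E-5, a gene resembling a viral envelope gene, and Edv, whose name ties it to an endogenous retrovirus, are mouse genes that are followed here through type II alveolar epithelial (AT2) cells of control lungs and of lungs resolving an acute injury. They were chosen by gene symbol, with their measured values from the same arrays already known, and they account for 2 of the 324 rows that hold measurements in a deposited table of 31351 rows. D17H6S56E-5 was higher in every resolving array than in any control array, about 4-fold or more on average. The values of Edv overlapped between all 3 groups. Their spread was wider in each resolving group (SD 0.36 and 0.32) than in control (0.13), but this was not tested. For D17H6S56E-5 the SD was 0.27 with Tregs present, while with Tregs depleted (0.14) it was close to control (0.12). Neither gene differed detectably between resolving cells taken with regulatory T cells (Tregs) present and with Tregs depleted.

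The samples were AT2 cells from mice of 8 to 12 weeks, with 5 arrays in each of 3 groups. Control cells came from C57BL/6 mice. Resolving cells with Tregs present came from Foxp3EGFP mice, a C57BL/6 line in which Tregs carry green fluorescent protein, and resolving cells with Tregs depleted came from Foxp3DTR mice, a C57BL/6 line in which a human diphtheria toxin receptor placed in the Foxp3 locus lets diphtheria toxin kill Tregs. Both resolving groups were taken 7 days after Escherichia coli LPS at 3 mg/kg was instilled into the trachea. Mouse line and injury changed together in each comparison with control. Treg state changed as well where Treg-depleted cells were compared with control. Mouse line and Treg state changed together between the resolving groups. In each comparison the factors named cannot be told apart, and exposure to diphtheria toxin may have differed too. The treatment text, the same for every sample, mentions LPS for all 3 lines and does not name the groups given diphtheria toxin, and nothing in the labels ties an array to its own mouse. A second line of the descriptions calls the cells Tregs, of the spleen in Tregs-depleted 2, 3 and 4.

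Endogenous retroviruses are remnants of retroviral infections of the germ line that are inherited as part of the host genome. Most are silenced in adult cells by DNA methylation and repressive chromatin, and their transcripts can appear when silencing is relaxed or when inflammatory transcription factors act on promoter elements. A few of their genes, envelope genes among them, have been kept by the host as ordinary cellular genes. In alveolar epithelium, AT2 cells make surfactant and act as the progenitors that restore the gas-exchange surface after injury.

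D17H6S56E-5, described in the file as a DNA segment of chromosome 17 and listed by RefSeq as a protein-coding gene with the synonym G7e, is known as a gene resembling a viral envelope gene in the class III region of the mouse major histocompatibility complex. In the RefSeq gene order it stands between Lsm2, which encodes a protein of RNA processing complexes, and Vars, which encodes the valyl-tRNA synthetase. Edv is described in the file as an endogenous sequence related to the Duplan murine retrovirus, the defective leukaemia virus behind murine AIDS. Of the 2 genes, 1 was matched to the RefSeq tables, and that was D17H6S56E-5.

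Of the 2 genes only D17H6S56E-5 had a RefSeq promoter window to search, and its difference from control was known beforehand. The window ran from 250 bases before to 50 bases after the annotated start on the minus strand in build GRCm38.p6. Its bases were 67.0% G or C, against a median of 52.7% over 32851 mouse windows of the same length, and 85.6% of those windows had a lower share. The window held 1 match to the core letters of the interferon-stimulated response element, GAAA and GAAA parted by any 2 bases, on the strand of the gene and 0 on the other strand. At least 1 match on either strand was present in 3.44% of all windows. The stretch at chr17:35000814-35000843, minus strand, is shown with the matched letters in capitals, which lie 87 to 78 bases before the start.
D17H6S56E-5 response element stretch: tagagcgcggGAAAACGAAAgccctagtgt
The longest repeat in the window was 27 bases long, with copies at chr17:35000892-35000918 and chr17:35000857-35000883, and it is shown in capitals because both copies are identical.
D17H6S56E-5 repeated stretch: GGGTCAGGCGCCGCCGCGGGCAGCCCG
A repeat of at least that length occurred in 1.12% of all windows. No match was found on either strand to the gamma-activated site (TTC and GAA parted by any 3 bases, in 8.30% of windows), the AP-1 site (TGANTCA, in 7.81%) or the TATA box (TATAAA, in 13.6%). These motifs were picked after the sequence had been seen, and a match describes letters and not a site in use.

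Cells negative for CD31 and CD45 were sorted for surface markers of AT2 cells, and DNase was not used on the lysates ahead of the RNA column. The sort could not be checked on these arrays, since 0 of 10 AT2 marker genes were among the measured rows. Array medians lay between 2.25 and 2.39 on the log2 scale, and correlations between arrays over the measured rows ranged from 0.929 to 0.984. Of 46 marker genes of AT2 and other cell types, 4 were measured, all of leukocytes. Of these, Nckap1l, Rcsd1 and Slamf6 had group means between 2.20 and 2.46, near the array medians. Lcp2, an adaptor of leukocyte receptor signalling, stood at 6.61 in control 4 and 7.07 in Tregs-depleted 5 and at 4.33 or less elsewhere. The log2 of the summed level of the 4 genes ranged from 4.43 to 6.84 in control, 4.48 to 5.12 with Tregs present and 4.43 to 7.22 with Tregs depleted. Its high ends in control and with Tregs depleted came from Lcp2. Nckap1l, Rcsd1 and Slamf6 stood between 1.99 and 2.67 in every array. In bulk samples a different mix of cells and a different RNA level per cell cannot be told apart.

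D17H6S56E-5 was read by 1 row, transcript AK088284, and was above the array median in all 15 arrays. In the control arrays 1 to 5 its log2 values were 5.51, 5.65, 5.35, 5.64 and 5.55. With Tregs present they were 7.59, 7.53, 7.28, 8.03 and 7.58, and with Tregs depleted 7.83, 7.64, 8.01, 7.84 and 7.73. All 10 resolving arrays lay above all 5 controls, and the lowest of them, Tregs-present 3, stood 1.63 log2 units above the highest control. The resolving groups overlapped, with Tregs-present 4 the highest of all 15 arrays and Tregs-present 3 the lowest of the resolving ones.

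**Figure D1:**
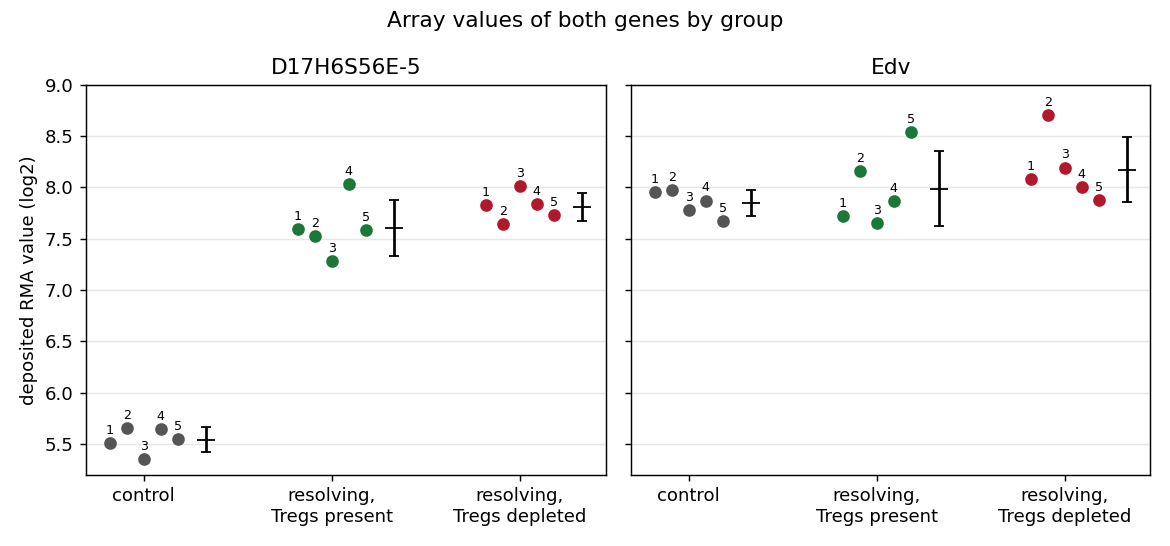
Deposited log2 RMA value of D17H6S56E-5 (left) and Edv (right) in each array, numbered by replicate, with the group mean and SD (n = 5) as a bar to the right of the points. The D17H6S56E-5 controls lie between 5.35 and 5.65 and the 10 resolving arrays between 7.28 and 8.03, whereas the 3 groups overlap for Edv.

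The group means of D17H6S56E-5 on the log2 scale were 5.54 ± 0.12 in control, 7.60 ± 0.27 with Tregs present and 7.81 ± 0.14 with Tregs depleted (SD, n = 5 each). Against control, limma called 16.2% of all tested genes with Tregs present and 11.0% with Tregs depleted, in either direction. The D17H6S56E-5 difference from control was 2.06 with Tregs present (SE 0.14 from limma), or 4.18-fold, and 2.27 with Tregs depleted (SE 0.14), or 4.83-fold. Because the gene was chosen with these values known, they are given as a description and without a test. Both differences use the same 5 control arrays. In each, D17H6S56E-5 ranked 1 of the 173 tested genes, where the median difference over all genes was -0.07 with Tregs present and -0.04 with Tregs depleted. It was the 1 of the 2 genes whose resolving groups did not overlap control. Over all tested genes, the share higher than control without overlap was 3.47% with Tregs present and 2.89% with Tregs depleted.

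With the measured rows forced to one distribution on every array (quantile normalization), the differences of D17H6S56E-5 from control were 2.59 and 2.48. The lowest resolving array then stood 2.09 above the highest control. Without any 1 array they lay between 1.96 and 2.14 with Tregs present and between 2.22 and 2.31 with Tregs depleted. Without control 4 and Tregs-depleted 5, the arrays with high Lcp2, they were 2.09 and 2.32. D17H6S56E-5 itself was 5.64 and 7.73 in those arrays, inside the range of the others of each group.

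Edv was read by 1 row as well, transcript AK002956. The cell with its array identifiers holds 3 of them joined together and has 23 characters, a length that no cell of the measured rows exceeds and that 5 of them share, so further identifiers may have been lost. Joined identifiers occurred in 17 (5.25%) of the 324 measured rows, and D17H6S56E-5 had 1. An Edv value can therefore pool probes placed at more than 1 site of the genome, and the sites cannot be told apart.

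In control arrays 1 to 5 Edv had log2 values of 7.95, 7.98, 7.78, 7.87 and 7.67. With Tregs present the values were 7.72, 8.16, 7.66, 7.87 and 8.54, and with Tregs depleted 8.08, 8.71, 8.19, 8.01 and 7.88. All 3 groups overlapped, and 6 of the 10 resolving arrays lay above the highest control. The highest arrays were Tregs-depleted 2 and Tregs-present 5, one from each resolving group. The lowest was Tregs-present 3, which was also the lowest resolving array for D17H6S56E-5.

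The means of Edv on the log2 scale were 7.85 ± 0.13 in control, 7.99 ± 0.36 with Tregs present and 8.18 ± 0.32 with Tregs depleted (SD, n = 5 each). The order of the means was thus control, Tregs present, Tregs depleted for both genes, but for Edv no neighbours in that order differed by more than the spread of the resolving arrays. The difference from control was 0.14 (SE 0.17) with Tregs present and 0.32 (SE 0.17) with Tregs depleted, again with shared controls and without a test. These are 1.10-fold and 1.25-fold, and they ranked 27 and 12 of 173 among signed differences. By size in either direction they ranked 94 and 41. For genes of any direction the median size of the difference was 0.15 and 0.16.

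The Edv difference with Tregs present rested on 1 array: without Tregs-present 5 it was -0.000642, and after quantile normalization it was -0.02. With Tregs depleted it ranged from 0.19 without Tregs-depleted 2 to 0.40 without Tregs-depleted 5, and it was 0.19 after quantile normalization.

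**Figure D2:**
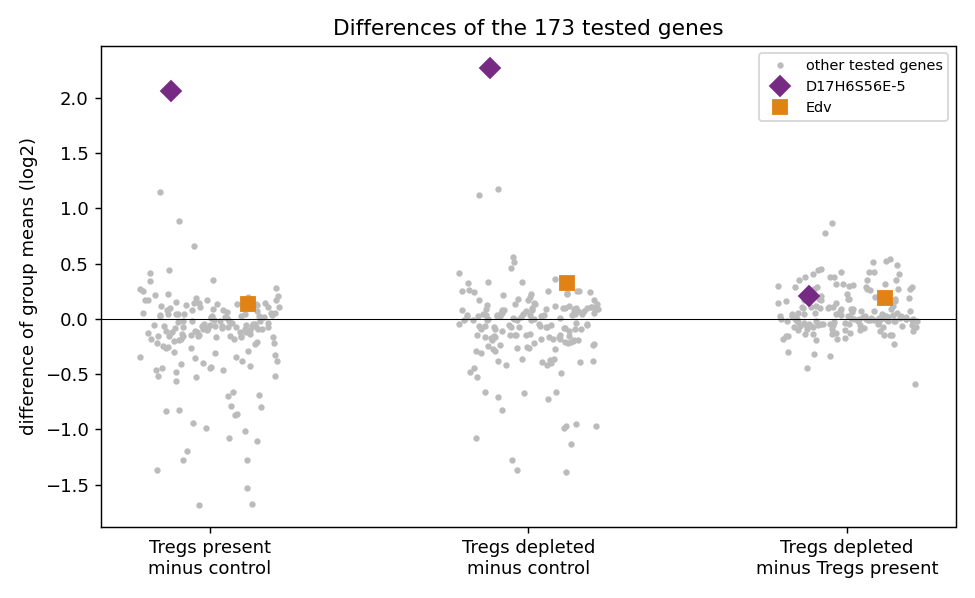
Difference of group means (log2, vertical axis) for the 173 tested genes in the 3 comparisons, with each grey point a gene and the horizontal scatter only for legibility. D17H6S56E-5 (diamonds) lies highest in both comparisons with control, at 2.06 and 2.27, and Edv (squares) lies at 0.14, 0.32 and 0.19, within the cloud.

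What Tregs do to AT2 cells during recovery is the study's question, and it is addressed by setting the 2 resolving groups against each other. D17H6S56E-5 differed by 0.21 on the log2 scale, with a 95% interval from -0.08 to 0.49 (adjusted p = 0.697 by limma over 173 genes). This corresponds to 1.15-fold, with an interval from 0.95 to 1.41. All 5 Treg-depleted arrays lay above the mean of the other group, but 0 lay above its highest array. For Edv the difference was 0.19, with an interval from -0.18 to 0.55 (adjusted p = 0.844 by limma), or 1.14-fold (0.89 to 1.46). Of the Treg-depleted arrays 4 of 5 lay above the Tregs-present mean and 1 above its highest array.

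Limma called 0 of the 173 genes in this comparison (0.0%), and 14 had an unadjusted p under 0.05, neither gene among them (0.145 and 0.293). The unmoderated linear model also called 0. The intervals allow a difference of up to 0.49 for D17H6S56E-5 and 0.55 for Edv, so likeness of the 2 resolving groups is not shown. For D17H6S56E-5 the sign turned to -0.10 (-0.41 to 0.21) after quantile normalization. That scaling set the gene to 7.67 in every Treg-depleted array and in Tregs-present 2, 3 and 5. In Tregs-present 1 and 4 it was set to 7.92, and the turn of sign rests on those arrays. With the deposited values, the D17H6S56E-5 difference without Tregs-present 4 was 0.32 (0.05 to 0.58, adjusted p = 0.325 by limma), and without Tregs-present 3 it was 0.13. The Edv difference was 0.05 without Tregs-depleted 2 and 0.32 without Tregs-present 5.

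**Figure D3:**
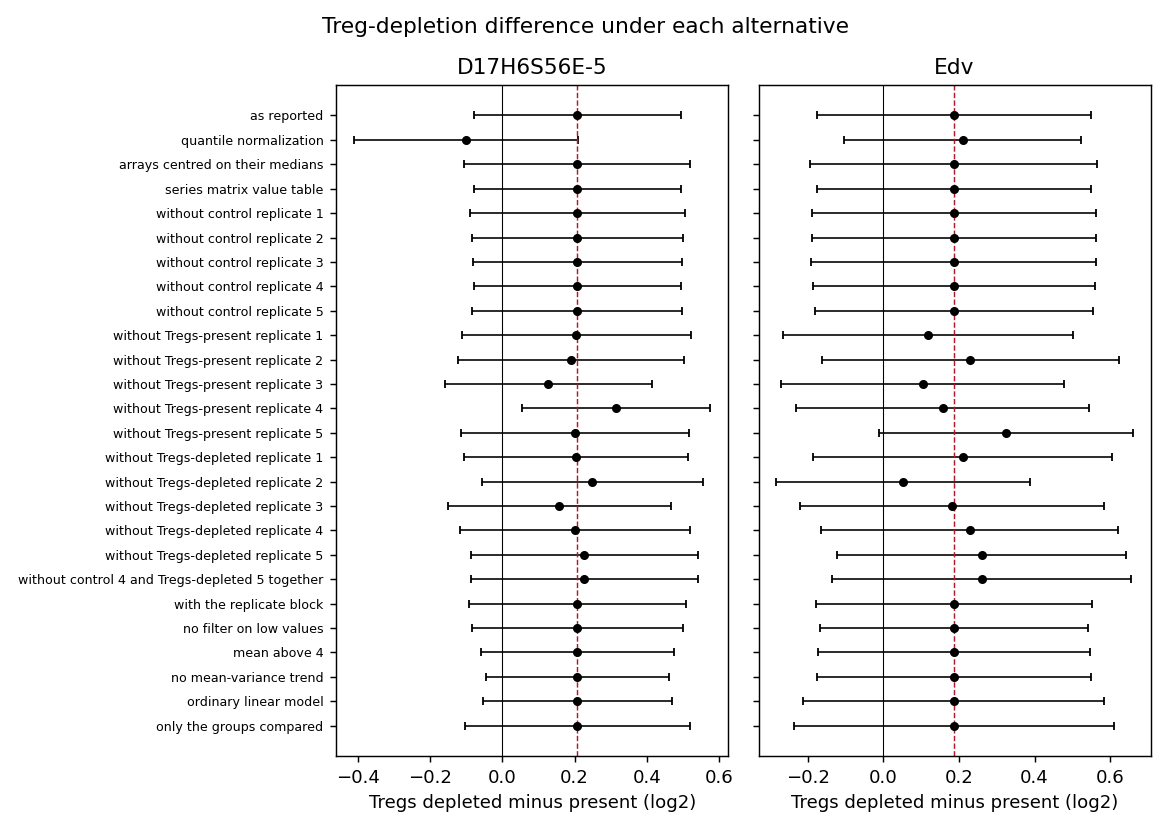
Difference of Tregs depleted minus Tregs present (log2, horizontal axis) with its 95% interval for D17H6S56E-5 (left) and Edv (right) as reported and under each of 25 alternatives. Leaving out a control array or changing the filter, moderation or block leaves the estimate itself unchanged. The dashed line marks the reported difference, 0.21 and 0.19, and the only estimate below 0 is that of D17H6S56E-5 after quantile normalization, at -0.10.

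No relation between the 2 genes was detected among the arrays of resolving cells. Across the 10 resolving arrays Pearson's r was 0.09 (permutation p = 0.809) and Spearman's rho 0.07 (permutation p = 0.865). With Benjamini-Hochberg adjustment over the pair of coefficients both p-values were 0.865. Without Tregs-present 3 and 4, the arrays farthest from the median of D17H6S56E-5, r was -0.16 (exact permutation p = 0.707, 8 arrays). Controls were left out because they form a separate cluster for D17H6S56E-5, and with 5 arrays a correlation within 1 group was not computed. With 10 arrays a moderate relation would not be detectable.

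**Figure D4:**
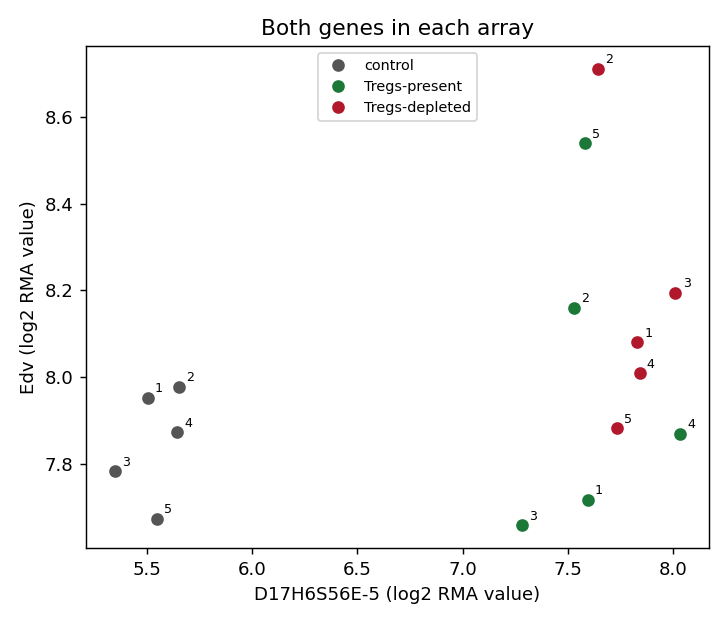
Edv (vertical axis) against D17H6S56E-5 (horizontal axis), both as deposited log2 RMA values, for each of the 15 arrays, numbered by replicate and coloured by group. Controls form a separate cluster at low D17H6S56E-5, and within the resolving arrays the highest Edv values, 8.71 and 8.54, fall at intermediate D17H6S56E-5 values of 7.64 and 7.58.

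The spread between arrays of a group was set beside that of the 46 tested genes with a mean over 4. In control, the SD of D17H6S56E-5 (0.12) was exceeded by 43 of the 46 genes and that of Edv (0.13) by 42, where the median gene had 0.32. On the deposited scale both were thus among the steadiest of these genes in control cells. After quantile normalization the D17H6S56E-5 controls ran from 4.72 to 5.58, against 5.35 to 5.65 as deposited. With Tregs present, 22 of the 46 had a larger SD than D17H6S56E-5 and 13 a larger SD than Edv. With Tregs depleted the counts were 39 for D17H6S56E-5 and 19 for Edv. The differences in spread were not tested, and for D17H6S56E-5 they depend on the scaling. After quantile normalization its Treg-depleted values were all tied at 7.67, so they had no spread. With Tregs depleted, Edv was 8.71 in Tregs-depleted 2 and 7.88 to 8.19 in the other arrays of the group.

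Likeness of pattern was measured as Pearson's r over the 15 arrays against the other 172 tested genes, as a description. For values as deposited, the genes most like D17H6S56E-5 were Clu, which encodes the secreted chaperone clusterin (r = 0.96), the predicted gene Gm20559 (0.89) and Prr16, a proline-rich protein gene (0.87). Those values mostly carry the step between control and resolving arrays that all of them share. Clu stood at 7.63 ± 0.21 in control and at 8.78 ± 0.12 and 8.75 ± 0.22 in the resolving groups (SD, n = 5), and Gm20559 at 5.98 ± 0.38, 6.87 ± 0.17 and 7.15 ± 0.29. Prr16 stood at 2.42 ± 0.10, 3.08 ± 0.19 and 2.98 ± 0.13.

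With the group means removed, other genes came first. For D17H6S56E-5 they were the vomeronasal receptor gene Vmn1r28 (r = 0.69), the clone 9330121J05Rik (0.66) and the histone H3 gene Hist1h3d (0.65), with group means from 2.41 to 2.83, close to the array medians. For Edv they were Lpin2, a phosphatidate phosphatase of lipid synthesis (r = 0.64), and the clones A130015J22Rik (0.63) and 7530414M10Rik (0.59). Lpin2, like Edv, was lowest in Tregs-present 3 and highest among the Treg-depleted arrays in Tregs-depleted 2. For Edv as deposited the leading genes were Gm10554 (0.63), A130015J22Rik (0.57) and Gm9804 (0.48). Between the 2 genes r was 0.39 as deposited and -0.02 with the group means removed.

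Other genes of retroviral biology could hardly be followed. Of 112 listed genes, 1 was measured: Trim30a, an interferon-induced gene of the restriction and sensing list (1 of 25). The lists of retroviral elements and domesticated genes (0 of 11), envelope receptors (0 of 5), silencing factors (0 of 27) and class III neighbours of D17H6S56E-5 (0 of 45) had no measured gene. Its mean log2 value was 2.86 ± 0.75 in control, 2.50 ± 0.06 with Tregs present and 3.37 ± 0.98 with Tregs depleted (SD, n = 5). It differed from control by -0.36 (adjusted p = 0.618 by limma) and 0.51 (adjusted p = 0.425) and between the resolving groups by 0.87 (adjusted p = 0.527). Its highest value, 4.85, was in Tregs-depleted 5, which also had the highest Lcp2 value (7.07). In that array D17H6S56E-5 and Edv deviated from their group means by -0.08 and -0.29.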

How the data were processed

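AT2 cell RNA (225 ng) was hybridised to Affymetrix Mouse Gene 2.1 ST arrays, per the labels' protocols. Expression Console by Affymetrix, RMA (robust multi-array average) and Partek are listed in the submitters' processing notes, with no version or genome build. The authors deposited log2 values, which were used as they are. In 31027 of 31351 rows they lie on a straight line by row number, to within 4.41e-13, and were left out. The measured values of both deposited tables were identical. Names were kept beside values as the file has them, unchecked.

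Samples were grouped by their description. The highest row stood for each symbol, genes above the array median of measured rows in at least 5 of 15 arrays were kept (173 of 323 symbols), and limma 3.58.1 in R 4.3.3 (lmFit, eBayes with trend) estimated a mean for each group from all 15 arrays, with Benjamini-Hochberg adjustment and calls under 0.05. It was tested on simulated data. Correlations used 100000 permutations (numpy 2.4.6), or all of them below 10 arrays. The number of arrays limits the precision, and p-values reflect only the spread among these samples, which may be technical. The genes and lists were chosen with earlier results of these data known. By rule, the genes of most similar pattern were the 3 with the highest r for each gene and scale. Alternatives changed the scaling, filter, moderation, samples and replicate block.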

Additional observations from a re-analysis of the deposited data

Results flagged for a closer look

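In 54 groups of 5 arrays, those of both genes and of the other genes named beside them, 4 held a single value standing apart. Chance gives about 1 such group in 20, which is 2.7 of them. The high Lcp2 arrays were known beforehand and the similar genes were picked by their pattern, so these counts cannot be compared. Neither D17H6S56E-5 nor Edv had such an array. Lcp2 reached 6.61 in control 4, whereas the remaining controls had 2.78 to 3.81, and 7.07 in Tregs-depleted 5 against 2.75 to 3.64. The clone 9330121J05Rik was 3.37 in Tregs-present 4 against 2.45 to 2.67, and D17H6S56E-5 was also highest of its group in that array. Gm9804 was 2.74 in control 2 against 2.43 to 2.51, and Edv was highest of the controls there. Since 9330121J05Rik was picked for likeness to D17H6S56E-5 and Gm9804 for likeness to Edv, these shared high arrays are not separate observations. Without control 4 and Tregs-depleted 5 together, the differences from control were 2.09 and 2.32 for D17H6S56E-5 and 0.14 and 0.40 for Edv.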

How the results depend on the processing

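Between the resolving groups, neither gene was called in any of the 25 alternatives run. Many of these cannot move the difference itself: leaving out a control, the block, the filters and the moderation change only the interval or p-value. The second deposited table held the same values and repeats the reported fit. After quantile normalization the D17H6S56E-5 difference between the resolving groups reversed to -0.10, and its differences from control were 2.59 and 2.48. The gene was then tied at 7.67 in all resolving arrays but Tregs-present 1 and 4, which had 7.92. The reversal rests on those arrays, and why the scaling set them higher was not tested. Quantile normalization shifted the median difference over all tested genes by at most 0.08 in any comparison. Leaving out 1 array gave 0.13 to 0.32 for D17H6S56E-5 and 0.05 to 0.32 for Edv between the resolving groups, 1.96 to 2.14 and -0.000642 to 0.22 with Tregs present against control, and 2.22 to 2.31 and 0.19 to 0.40 with Tregs depleted against control. The counts of called genes were then 0, 19 to 31 and 15 to 24, against 0, 28 and 19. With only genes of a mean above 4, 1 gene was called between the resolving groups. The correlation of the 2 genes turned to -0.16 without its farthest arrays, to -0.33 after quantile normalization and to -0.061 with group means removed. The value of -0.33 rests on the same tied values of D17H6S56E-5. Adding the number as a replicate block, the differences between the resolving groups stayed at 0.21 (adjusted p = 0.750 by limma) and 0.19 (0.877). Equal numbers were not taken as pairs: deviations correlated over 0.1 in 3 of 15 same-numbered pairs (median 0.0033, against 0.0244 in other pairs). Signal near the array medians limits the genes named as similar other than Clu, Lpin2 and Gm20559.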
